A study of Mus musculus with 20 samples.

Results

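Galectins are lectins that bind beta-galactoside sugars on glycoproteins and glycolipids. They are made in the cytosol, leave the cell by a route that bypasses the classical secretory pathway, and then crosslink glycans on cell surfaces and in the matrix, while inside the cell they mark damaged endosomes and lysosomes. In the central nervous system galectin-3 is best known as a protein of reactive and phagocytic microglia, and galectin-1 and galectin-9 are known as regulators of myeloid and lymphoid cells. The 5 galectin genes described here, Lgals1, Lgals3, Lgals4, Lgals8 and Lgals9, were taken by symbol from the 16810 genes of the deposited table. They are 5 of the 8 galectin genes in that table and were chosen with earlier results of these data known. Their transcript levels were followed across all 7 groups of the study.

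The RNA came from eGFP-high cells sorted from the spinal cord of mice of genotype CX3CR1+/eGFP, in which 1 copy of the fractalkine receptor gene is replaced by the fluorescent protein. All groups, controls included, carried this allele. The mice were males of 12 weeks. They were not injured (NI, 3 samples), had a lateral hemisection (HS) or had a full transection (FT) at thoracic level 9, and a segment of 1 cm was taken 72 h, 1 week or 2 weeks later. Each injured group had 3 samples except HS 1 week, with 2. The study used 38 NI, 29 HS and 48 FT mice, and its methods call the replicates biological. The number of mice behind each library is not given in the sources used here, and p-values measure the spread between these samples. CX3CR1-driven eGFP is also carried by peripheral monocytes, which the gate on bright cells was meant to leave out. In a parallel experiment after HS the paper found the eGFP-high cells negative for LY6C. Cells with low and high CD45 could be told apart at 72 h but not later. The paper states that some infiltrating macrophages may therefore be among the sorted cells.

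Levels are given as normalised counts per 1000000 reads (CPM), scaled by the authors, and the reads on genes ranged from 3.87M to 34.1M per sample (M, 1000000 reads). A gene was called differentially expressed (DE) when the limma test across all 16810 genes gave a Benjamini-Hochberg adjusted p under 0.05 and a change of at least 2-fold on the log2(CPM + 0.5) scale. All 10 microglial markers examined were present, with a summed level of 18503 to 38940 CPM. P2ry12, the purinergic receptor that defines resting microglia, averaged 4223 CPM in NI and 1954 to 2898 CPM in the injured groups. By group means, 4 of the 10 markers (P2ry12, Tmem119, Sall1 and Siglech) were below NI in every injured group, 2 were above it (Fcrls, 1713 CPM in NI and 2726 to 5248 CPM after injury, and Olfml3), and 4 were mixed. The monocyte list held 11 symbols, of which Chil3 and Chi3l3 name 1 gene. The table held 10 of them, with Chi3l3 and without Chil3, and none of these 10 was at 0 in every sample. Their summed level was 64.4 to 73.5 CPM in NI, 802 to 965 in HS 72 h, 700 to 1600 in FT 72 h and 288 to 575 in the later groups, and Fn1 alone averaged 12.9 CPM in NI and 233 to 597 CPM in the injured groups. Oligodendrocyte markers summed to 382 to 2436 CPM and astrocyte markers to 146 to 613 CPM. Neutrophil markers summed to 14.4 to 310 CPM and border-associated macrophage markers to 37.6 to 325 CPM. Endothelial, fibroblast and pericyte, neuronal and lymphocyte markers each summed to at most 118 CPM. FT 72 h replicate 1 had the highest monocyte sum (1600 CPM) and border-associated macrophage sum (325 CPM). FT 1 week replicate 1 had the lowest microglial sum (18503 CPM), and results that moved most without either sample are given with and without it. In bulk RNA of this kind a change in the share of cells that carry a transcript and a change in the amount per cell cannot be told apart.

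Spinal cord injury was accompanied by higher Lgals1 and Lgals3 in all 6 injured groups and by higher Lgals9 at 72 h, while Lgals8 and Lgals4 were not DE in any of them. Lgals1 was 12.9-fold above NI in HS 72 h and 14.9-fold in FT 72 h and later stood at 2.29-fold to 3.51-fold, whereas Lgals3 was 10.5-fold (HS) and 13.7-fold (FT) above NI at 72 h and 17.0-fold and 17.8-fold above it at 2 weeks. In HS 72 h 3 of the 5 galectins were DE, all higher, against 13.4% of all genes (9.08% higher). In FT 72 h 3 of 5 were DE and higher, against 12.2% of all genes (8.14% higher). Later 2 of 5 were DE and higher in each group. The share of all genes that was DE was then 2.18% in HS 1 week (1.7% higher), 3.23% in HS 2 weeks (2.43%), 4.05% in FT 1 week (2.86%) and 4.88% in FT 2 weeks (3.53%). Counted by samples that lay entirely above NI, 4 of 5 galectins did so in HS 72 h and FT 72 h, against 24% and 22.2% of all genes. Later 3 of 5 did so in each group, against 20.2% in HS 1 week, 14.5% in HS 2 weeks, 11.4% in FT 1 week and 17.3% in FT 2 weeks. The median log2 change of the 5 galectins was 1.35 in HS 72 h and 1.22 in FT 72 h, where the median over all genes was -0.11 and -0.09. At 1 week and 2 weeks it was 0.57 to 0.95, beside -0.03 to 0.02 over all genes. The 6 comparisons share the NI samples, so they are not independent of each other. Because the 5 galectins were chosen with earlier results of these data known, the shares of all genes beside them are a description. The table holds 8 galectin genes, and the others, Lgals2, Lgals12 and Lgalsl, were not DE against NI in any group.

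**Figure D1:**
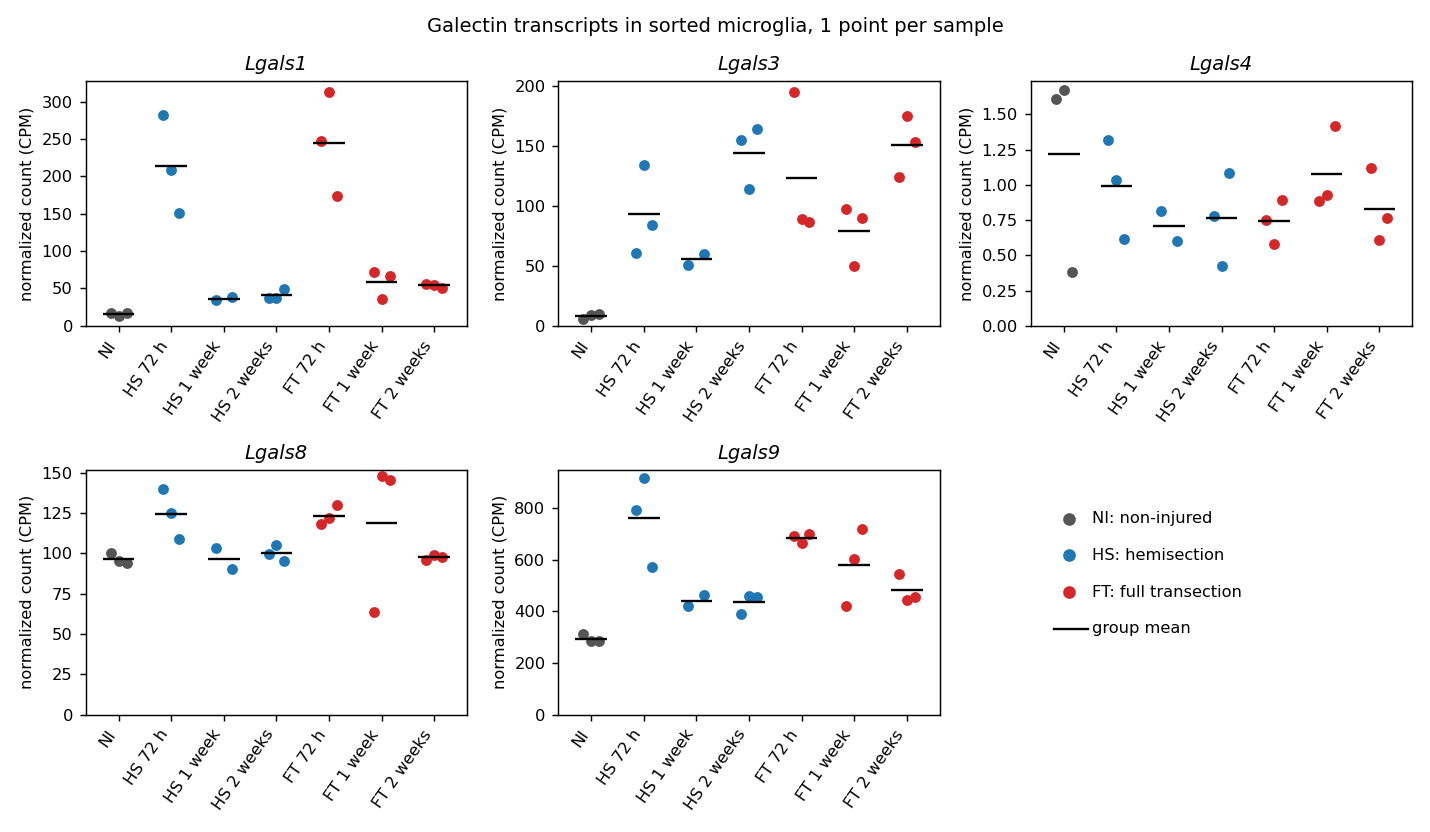
Normalised count (CPM, linear axes from 0) of each galectin in every sample, 1 panel per gene; points are samples and bars mark group means. Lgals1 peaked in the 72 h groups (151 to 313 CPM against 12.6 to 17.4 in NI), Lgals3 was high at 72 h and again at 2 weeks (114 to 175 CPM), and Lgals4 was at most 1.67 CPM in every sample.

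Lgals1 encodes galectin-1, a small galectin with a single carbohydrate-binding domain that pairs into dimers. The gene lies on the plus strand of chromosome 15 at chr15:78926725-78930465 (GRCm38, GENCODE vM21 exons of 903 bases in all, ENSMUSG00000068220). It measured 17.2, 12.6 and 17.4 CPM in the 3 NI samples. Its values in HS 72 h were 283, 209 and 151 CPM, and in FT 72 h 248, 313 and 174 CPM. Each of these 6 samples was above every NI sample, by a wide margin. At 1 week it measured 34.6 and 38.3 CPM after HS and 72.3, 36.4 and 66.2 CPM after FT. At 2 weeks the HS samples stood at 37.7, 37.6 and 49.2 CPM and the FT samples at 55.7, 55.3 and 51.1 CPM. No injured sample overlapped the NI range at any time. The log2 change from NI was 3.69 (SE 0.26, limma adjusted p = 1.08e-09) in HS 72 h and 3.89 (limma adjusted p = 5.30e-10) in FT 72 h. In HS it was 1.20 at 1 week (limma adjusted p = 0.0223) and 1.37 at 2 weeks (limma adjusted p = 0.00166). In FT it was 1.81 at 1 week (limma adjusted p = 7.77e-05) and 1.76 at 2 weeks (limma adjusted p = 7.17e-05). The call in HS 1 week, the group with 2 samples, was lost under 4 alternatives given in the closing section. Without FT 1 week replicate 1, the highest of its group for Lgals1, the log2 change in FT 1 week was 1.63 (limma adjusted p = 0.000452). Processed pseudogenes of Lgals1 are annotated elsewhere in the genome, and how reads shared with them were counted is not given in the sources used here.

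The fall of Lgals1 after 72 h was itself DE in both injuries. From 72 h to 1 week it fell by 2.49 on the log2 scale after HS (limma adjusted p = 4.75e-06) and by 2.08 after FT (limma adjusted p = 1.06e-05). From 72 h to 2 weeks the values were -2.32 (limma adjusted p = 2.11e-06) and -2.13 (limma adjusted p = 7.07e-06). Of the 5 galectins Lgals1 alone was DE between times, 1 of 5 in each of these 4 comparisons, against 6.03%, 4.74%, 3.44% and 3.81% of all genes in the order HS 1 week, HS 2 weeks, FT 1 week and FT 2 weeks. Between 1 week and 2 weeks the log2 change was 0.18 after HS and -0.05 after FT. No galectin was DE by limma in that interval, where 1 of 5 in each injury had an unadjusted p under 0.05 and where 0.0119% (HS) and 0.0714% (FT) of all genes were DE. DESeq2 and both edgeR tests (quasi-likelihood and likelihood ratio) also called 0 galectins there. By samples alone, 4 of 5 galectins lay entirely lower at 1 week than at 72 h after HS (22.9% of all genes) and 3 of 5 at 2 weeks (15.6%). After FT the counts were 1 of 5 at 1 week (10.4%) and 3 of 5 at 2 weeks (13.8%).

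Lgals3 encodes galectin-3, the galectin that joins a sugar-binding domain to a flexible tail through which it oligomerises, and a protein of phagocytic microglia and macrophages. It lies on the plus strand of chromosome 14 at chr14:47367751-47386160 (GRCm38, exons of 1858 bases, ENSMUSG00000050335). The NI samples had 5.66, 8.75 and 9.98 CPM, from 68 to 104 reads. In HS 72 h it measured 61.1, 134 and 83.8 CPM and in FT 72 h 195, 89.4 and 86.8 CPM. The first FT sample stood well above the other two. At 1 week the HS samples had 50.8 and 60.4 CPM and the FT samples 97.5, 50.1 and 90.1 CPM. At 2 weeks Lgals3 reached 155, 114 and 164 CPM after HS and 124, 175 and 154 CPM after FT. The NI samples were again far below every injured sample, and at 2 weeks every sample was above every 1 week sample of the same injury.

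The log2 change of Lgals3 from NI was 3.40 in HS 72 h (SE 0.32, limma adjusted p = 8.65e-08) and 3.78 in FT 72 h (limma adjusted p = 1.83e-08). At 1 week it was 2.73 after HS (SE 0.35, limma adjusted p = 5.23e-05) and 3.19 after FT (limma adjusted p = 7.28e-07). At 2 weeks it was 4.09 after HS (limma adjusted p = 1.80e-08) and 4.16 after FT (limma adjusted p = 1.18e-08). FT 72 h replicate 1, which had the highest Lgals3 of all samples (195 CPM), also had the highest monocyte marker sum (1600 CPM, against 700 and 758 in the other two FT 72 h samples), and without it the log2 change in FT 72 h was 3.40 (limma adjusted p = 1.72e-07). Fn1, the most abundant gene of that marker list, alone ranged from 407 to 914 CPM in FT 72 h. The part of these monocyte markers in the level of Lgals3 was not tested. Between times no change of Lgals3 passed the adjustment over all genes. The log2 change from 1 week to 2 weeks was 1.36 after HS (limma adjusted p = 0.557) and 0.97 after FT (limma adjusted p = 0.697), the galectin with an unadjusted p under 0.05 in each. Lgals3 was the 1 galectin of 5 whose samples did not overlap and were higher at 2 weeks than at 1 week in each injury, against 10.3% of all genes after HS and 4.05% after FT.

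**Figure D2:**
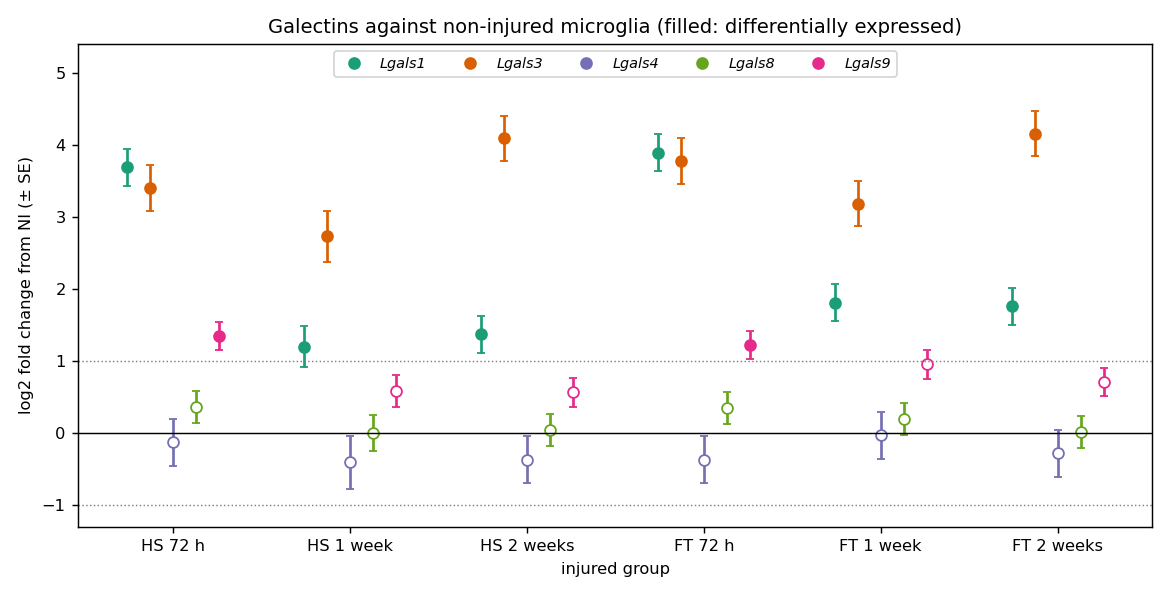
Log2 fold change of the 5 galectins from NI (y axis, bars are ± 1 SE of the limma fit) in each of the 6 injured groups (x axis); filled symbols are differentially expressed. Lgals1 went from 3.69 and 3.89 at 72 h to between 1.20 and 1.81 later, Lgals3 stayed between 2.73 and 4.16, and Lgals8 and Lgals4 lay between -0.40 and 0.36.

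Lgals9 encodes galectin-9, a tandem-repeat galectin with a pair of sugar-binding domains, known as a ligand of the immune checkpoint receptor TIM-3 and as an interferon-inducible gene. It lies on the minus strand of chromosome 11 at chr11:78962974-78984946 (GRCm38, exons of 2137 bases, ENSMUSG00000001123). Its NI values were 311, 286 and 285 CPM. In HS 72 h they were 796, 918 and 572 CPM, and in FT 72 h 693, 666 and 699 CPM. All 6 were above NI, and Lgals9 was DE at 72 h, with a log2 change of 1.35 after HS (SE 0.20, limma adjusted p = 3.49e-05) and 1.22 after FT (limma adjusted p = 0.000112). At 1 week it measured 420 and 463 CPM after HS and 423, 605 and 719 CPM after FT. At 2 weeks it measured 389, 461 and 457 CPM after HS and 544, 444 and 458 CPM after FT. These 11 samples were also above the NI range, by less. After FT the log2 change was 0.95 at 1 week (limma adjusted p = 0.00378) and 0.71 at 2 weeks (limma adjusted p = 0.0275), both under the 2-fold limit. After HS it was 0.59 at 1 week (limma adjusted p = 0.213) and 0.57 at 2 weeks (limma adjusted p = 0.122), so that neither passed the adjustment. Without FT 1 week replicate 1 (423 CPM) the change in FT 1 week was 1.17 and DE (limma adjusted p = 0.000192). The calls at 72 h rest on the 2-fold limit and on the scaling, since quantile normalisation gave 0.76 after HS and 0.75 after FT, and columns set to equal totals gave 0.84 and 0.75, each with an adjusted p under 0.05. From 72 h onward the log2 change after HS was -0.76 at 1 week (limma adjusted p = 0.0338) and -0.78 at 2 weeks (limma adjusted p = 0.0145), under 2-fold. After FT it was -0.27 and -0.52, with limma adjusted p = 0.481 and 0.145.

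The RefSeq promoter table (GRCm38.p6) held 4 of the 5 galectins, Lgals3, Lgals4, Lgals8 and Lgals9, and the 250 bases before each annotated start were searched on both strands for short motifs of factors active in myeloid cells. The promoters of Lgals9 and Lgals3, the pair among these 4 that were DE after injury, are shown up to the first annotated exon base, with matches in capitals. The Lgals9 stretch is chr11:78984947-78985174 on the minus strand and ends 23 bases before the start. The Lgals3 stretch is chr14:47373610-47373812 on the plus strand and ends 48 bases before the RefSeq start at position 47373860, which lies inside the longer GENCODE gene.
Lgals9: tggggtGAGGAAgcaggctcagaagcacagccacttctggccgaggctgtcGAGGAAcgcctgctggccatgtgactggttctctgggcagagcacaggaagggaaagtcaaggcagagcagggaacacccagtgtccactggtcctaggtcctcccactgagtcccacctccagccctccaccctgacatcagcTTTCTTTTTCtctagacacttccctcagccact
Lgals3: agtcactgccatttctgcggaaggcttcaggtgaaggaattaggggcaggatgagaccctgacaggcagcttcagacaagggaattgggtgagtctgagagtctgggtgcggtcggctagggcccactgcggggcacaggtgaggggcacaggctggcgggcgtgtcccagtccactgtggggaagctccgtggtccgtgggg
The Lgals9 promoter held the core of the interferon-stimulated response element (GAAA, any 2 bases, GAAA) once, on the other strand with its first base at -55 (TTTCTTTTTC as printed), a match found in 2.98% of 32851 promoters. It also held GAGGAA, the core bound by the myeloid factor PU.1, at -244 and -199, as did 23.3% of promoters at least once. In Lgals3 the match was GGGCGG, the SP1 box, at -7, outside the stretch shown and present in 32.7% of promoters. Lgals4 held 1 GAGGAA, at -238, and the Lgals8 window held none of the motifs searched. That window lies before the RefSeq start at position 12461738, inside the GENCODE gene, whose outer start is at 12464944. TGANTCA (AP-1, 6.75% of promoters), TTCNNNGAA (7.02%), CACGTG (6.02%) and TATAAA (12.4%) had no match in these 4 windows. A match of letters is a description and no evidence of binding.

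Lgals8 encodes galectin-8, a tandem-repeat galectin that binds glycans exposed on ruptured endosomes. It lies on the minus strand of chromosome 13 at chr13:12439415-12464944 (GRCm38, exons of 3688 bases, ENSMUSG00000057554), where it overlaps Heatr1 on the other strand, and the library kit does not mark strand, so reads of the overlap cannot be told apart. It measured 100.2, 95.4 and 93.9 CPM in NI, 140, 125 and 109 CPM in HS 72 h, and 118, 122 and 130 CPM in FT 72 h. The 72 h samples were above the NI range, but the log2 change was 0.36 after HS (limma adjusted p = 0.233) and 0.35 after FT (limma adjusted p = 0.260). With columns set to equal totals it was -0.15 and -0.12, so no direction is given. At 1 week the values were 103 and 90.3 CPM after HS and 63.7, 148 and 145 CPM after FT, where replicate 1 was the lowest of all 20 samples. Without that replicate the log2 change in FT 1 week was 0.60 (limma adjusted p = 0.00542, under 2-fold) in place of 0.20 (limma adjusted p = 0.723). At 2 weeks the 3 HS samples had 99.8, 105 and 94.9 CPM and the 3 FT samples 95.9, 98.7 and 97.8 CPM, within or close to the NI range.

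Lgals4 encodes galectin-4, a tandem-repeat galectin of gut epithelium. It lies on the plus strand of chromosome 7 at chr7:28833854-28841708 (GRCm38, exons of 2315 bases, ENSMUSG00000053964). In NI it measured 1.61, 1.67 and 0.384 CPM, from 27, 13 and 4 reads. The 95% Poisson interval of the first NI sample, 1.06 to 2.34 CPM, did not meet that of the third, 0.105 to 0.982 CPM, and both intervals cover counting error only. The 17 injured samples had 0.428 to 1.42 CPM, from 2 to 40 reads. Its log2 change from NI was -0.40 to -0.03, with limma adjusted p of 0.435 to 0.980, and its 95% intervals reached from -1.16 to 0.65, so that a 2-fold lower level lay inside them in HS 1 week, HS 2 weeks and FT 72 h.

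Over all 7 groups together, limma's F test gave adjusted p = 1.42e-09 for Lgals1, 2.34e-08 for Lgals3, 0.000414 for Lgals9, 0.601 for Lgals8 and 0.873 for Lgals4, and 20.6% of all genes passed. In the order of group means, Lgals1 ran FT 72 h, HS 72 h, FT 1 week, FT 2 weeks, HS 2 weeks, HS 1 week and NI. Neighbours in that order were separated, with no overlap of samples, between HS 72 h and FT 1 week, between FT 2 weeks and HS 2 weeks, and between HS 1 week and NI. For Lgals3 the order was FT 2 weeks, HS 2 weeks, FT 72 h, HS 72 h, FT 1 week, HS 1 week and NI, and for Lgals9 it was HS 72 h, FT 72 h, FT 1 week, FT 2 weeks, HS 1 week, HS 2 weeks and NI. In both, the last step to NI was the only one without overlap.

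Levels were compared between galectins per kilobase of exon (CPM per kb). In NI the order was Lgals9 (mean 137 CPM per kb), Lgals8 (26.2), Lgals1 (17.4), Lgals3 (4.38) and Lgals4 (0.528), and no sample of one gene reached those of the next. In HS 72 h Lgals9 (357 CPM per kb) was followed by Lgals1 (237), Lgals3 (50.0) and Lgals8 (33.8). In FT 72 h the same order held, with 321, 271, 66.6 and 33.4 CPM per kb, and Lgals9 and Lgals1 overlapped in both 72 h groups. Lgals3 and Lgals8 overlapped in HS 72 h and were separated in FT 72 h. At 2 weeks Lgals3 had passed Lgals1, with 77.8 against 46.0 CPM per kb after HS and 81.4 against 59.8 after FT, and all 5 genes were separated. Dividing by the longest transcript in place of all exons gave the same orders, with Lgals3 at 102 and Lgals1 at 51.9 CPM per kb in HS 2 weeks.

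The summed level of the 8 galectin genes in the table was 201 ± 8.29 CPM per kb in NI (SD, n = 3), 696 ± 147 in HS 72 h and 713 ± 80.8 in FT 72 h. It was 319 ± 19.3 in HS 1 week (n = 2), 424 ± 79.8 in FT 1 week, 374 ± 30.0 in HS 2 weeks and 411 ± 14.0 in FT 2 weeks. Lgals9 accounted for 68.3% of it in NI and 45.6% to 64.8% after injury. The share of Lgals1 was 8.65% in NI, 33.8% in HS 72 h and 37.6% in FT 72 h, and 12.2% to 15.6% later. Lgals3 made up 2.19% in NI, 7.32% in HS 72 h and 9.25% in FT 72 h, 9.37% and 10.3% in the 1 week groups, and 20.9% and 19.8% in the 2 week groups. The share of Lgals8 was 4.75% to 8.26% after injury, below its share in NI.

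**Figure D3:**
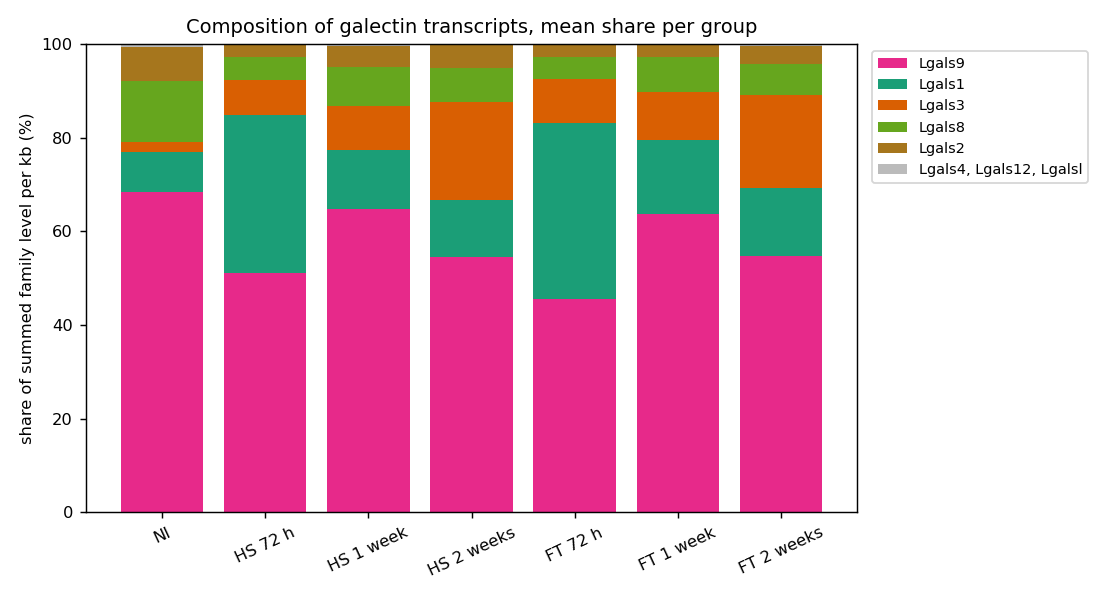
Share of each galectin gene in the summed galectin level per kilobase (y axis, percent) in the 7 groups (x axis), as means over samples. Lgals1 took 33.8% and 37.6% at 72 h against 8.65% in NI, and Lgals3 took 20.9% and 19.8% at 2 weeks against 2.19% in NI.

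The ratio of Lgals3 to Lgals1, each per kilobase, put both courses into 1 value per sample that does not depend on the scaling of the columns. It was 0.160, 0.337 and 0.279 in NI, 0.105, 0.312 and 0.270 in HS 72 h, and 0.382, 0.139 and 0.243 in FT 72 h. The ranges of these 3 groups overlapped. At 1 week the ratio was 0.714 and 0.767 after HS and 0.656, 0.668 and 0.661 after FT, above all NI and 72 h samples. At 2 weeks it was 2.00, 1.47 and 1.62 after HS and 1.09, 1.54 and 1.46 after FT, above all earlier samples. The ratio was chosen after the values of both genes had been seen and is given as a description, with no test.

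**Figure D4:**
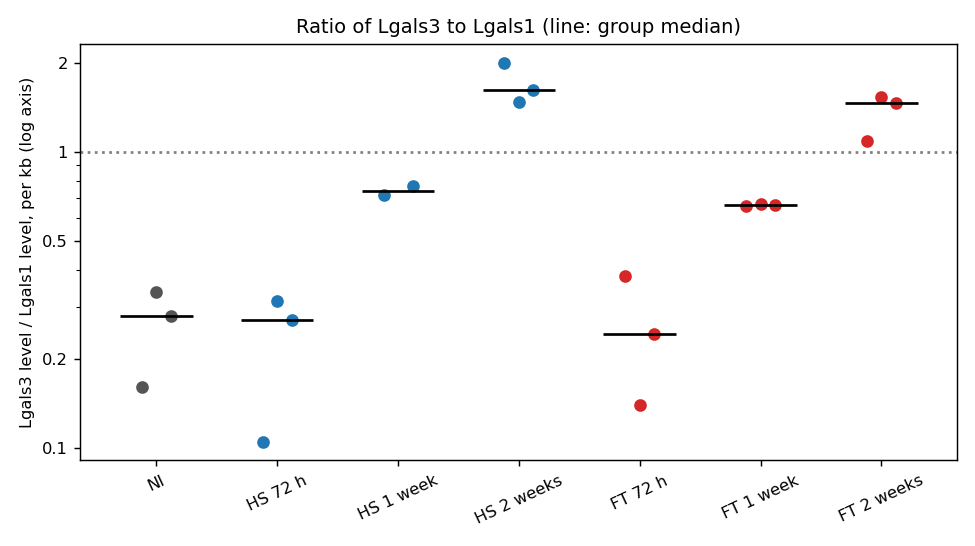
Ratio of Lgals3 to Lgals1 level per kilobase in each sample (y axis, log scale; points are samples, the dotted line is a ratio of 1) in the 7 groups (x axis). The NI and 72 h samples lay between 0.105 and 0.382, the 1 week samples between 0.656 and 0.767, and the 2 week samples between 1.09 and 2.00.

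The extent of the lesion was addressed by comparing FT with HS at matched times. By limma 0 of 5 galectins were DE between FT and HS at any of the 3 times or over all of them, as were 0% of all genes. The paper, which used edgeR, likewise reported none at 72 h, but found a few transcripts at 1 week and 1 at 2 weeks. The number of galectins with an unadjusted limma p under 0.05 was 0, 1 and 0 at the 3 times and 1 over all of them, and DESeq2 and both edgeR tests also called 0 galectins. The gene was Lgals1 both times. Its FT minus HS difference was 0.20 on the log2 scale at 72 h (95% interval -0.33 to 0.73), 0.61 at 1 week (0.02 to 1.21, limma adjusted p = 0.999, and 0.43 without FT 1 week replicate 1) and 0.39 at 2 weeks (-0.15 to 0.92). Averaged over times it was 0.40 (0.08 to 0.72) and did not pass the adjustment over all genes. By samples alone, FT lay entirely above HS for 0 of 5 galectins at 72 h (4.1% of all genes), for Lgals4 at 1 week (6.79%) and for Lgals1 at 2 weeks (4.45%). The Lgals4 separation rests on few reads, 5 and 6 in the 2 HS 1 week samples and 12 to 18 in FT 1 week. For Lgals3 the averaged difference was 0.30 (-0.10 to 0.70) and for Lgals9 0.13 (-0.12 to 0.38), and these intervals do not show that the injuries act alike. At 72 h the difference for Lgals3 was 0.38 (-0.28 to 1.04) with all samples and 0.00 without FT 72 h replicate 1. The Lgals9 difference at 1 week was 0.37 with all samples and 0.58 without FT 1 week replicate 1 (limma adjusted p = 0.232). The differences for Lgals8 were -0.01, 0.20 and -0.03, of which the second was 0.60 without that replicate (limma adjusted p = 0.152), and for Lgals4 -0.24, 0.37 and 0.09 in the order of times. The change between times differed between FT and HS for 0 of 5 galectins by limma, with 0 of them at an unadjusted p under 0.05 and 0% of all genes DE.

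Lgals3bp, which encodes a secreted scavenger-receptor protein that binds galectin-3, was followed with the other galectin-related genes of the table. It measured 203 ± 33.2 CPM in NI (SD, n = 3), 504 ± 48.8 in HS 72 h and 773 ± 180 in FT 72 h. At 1 week it stood at 974 ± 56.9 after HS (n = 2) and 1334 ± 410 after FT, and at 2 weeks at 1136 ± 195 and 1509.6 ± 262. Every injured group was DE against NI, with a log2 change from 1.32 in HS 72 h (limma adjusted p = 0.000300) to 2.89 in FT 2 weeks (limma adjusted p = 3.31e-08). After HS its level at 2 weeks was also DE above that at 72 h, by 1.16 on the log2 scale (limma adjusted p = 0.00307). After FT the same difference was 0.98 (limma adjusted p = 0.0155), just under the 2-fold limit. In both injuries every 2 week sample was above every 72 h sample. Between FT and HS it was not DE, with a difference of 0.59 at 72 h (95% interval 0.10 to 1.09, every FT sample above every HS sample) and 0.47 over the 3 times (0.17 to 0.77). The remaining 3 galectin genes, Lgals2, Lgals12 and Lgalsl, were not DE against NI in any group. Lgalsl, a galectin-related gene, had a log2 change of 0.93 in HS 72 h (limma adjusted p = 0.0642) and 0.91 in FT 72 h (limma adjusted p = 0.0753). After HS its level at 2 weeks was DE below that at 72 h, with a log2 change of -1.19 (limma adjusted p = 0.0398), with samples that overlapped. Lgals6 and Lgals7 were not among the galectin genes of the deposited table, so they could not be analysed.

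Galectins read glycans, so the genes that build their ligands and the glycoproteins that carry them were examined as lists. Of 15 glycoproteins described as galectin binding partners, 5 were DE and higher in at least 1 injured group, Fn1, Cd44, Nrp1, Itga5 and Lamp2, and 10 were never DE. Of all genes 11.2% were DE and higher in at least 1 injured group, 7.07% were DE and lower, and 18.2% were DE in either direction. The number higher was 4, 3 and 4 in HS and 4, 3 and 4 in FT at 72 h, 1 week and 2 weeks, with 0 lower. The corresponding shares of all genes that were DE and higher were 9.08%, 1.7% and 2.43% in HS and 8.14%, 2.86% and 3.53% in FT. The list's median log2 change was 0.40 to 0.66, beside -0.11 to 0.02 over all genes. Fn1, which encodes the matrix protein fibronectin, was at 12.9 CPM in NI and 546 ± 126 and 597 ± 276 CPM in HS 72 h and FT 72 h. Its log2 change was 5.33 and 5.39 at 72 h and 4.09 to 4.84 later. It is also the most abundant gene of the monocyte marker list in the injured groups, and its source was not tested. Cd44, the hyaluronan receptor, was at 13.9 CPM in NI and its log2 change was 1.80 to 2.40. Nrp1, a co-receptor for semaphorins and VEGF, was at 215 CPM in NI with a log2 change of 1.02 to 1.31 in all 6 groups. Itga5, the alpha chain of the fibronectin receptor, was DE at 2 weeks alone, with 1.15 after HS and 1.41 after FT. Lamp2, a lysosomal membrane glycoprotein named after its values were seen, was DE at 72 h, with 1.06 after HS and 1.12 after FT. Havcr2 (TIM-3) and Trem2, microglial receptors reported to bind galectin-9 and galectin-3 and also named after their values were seen, were never DE, with a log2 change of at most 0.32 and 0.72.

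Among 14 enzymes of N-glycan branching and poly-N-acetyllactosamine synthesis, 3 were DE and higher in at least 1 injured group, 1 was lower and 10 were never DE, beside 11.2% of all genes higher and 7.07% lower by the same count. The largest number higher in a single group was 3 of 14, in FT 72 h (8.14% of all genes), and in HS 72 h it was 2 of 14 (9.08%). The list's median log2 change was -0.22 to -0.05. Gcnt2, which branches poly-N-acetyllactosamine chains, was at 54.6 CPM in NI and rose in 4 groups, by 1.16 in HS 72 h, 1.16 in HS 1 week, 1.38 in FT 72 h and 1.09 in FT 2 weeks on the log2 scale. B3gnt8, which extends such chains, was low in NI (1.53 CPM) and rose by 1.48 in HS 72 h, 1.33 in HS 1 week (limma adjusted p = 0.0495) and 1.29 in FT 72 h. Man2a1, a Golgi mannosidase that opens the way to complex N-glycans, rose by 1.29 in FT 72 h. Mgat3, which adds the bisecting residue, fell by 1.19 in FT 72 h (limma adjusted p = 0.0436), with samples that overlapped NI. Of 7 sialyltransferases that can cap galactose, 0 were DE by limma in any group, beside the same 18.2%. By the adjusted p alone, and named after their values were seen, St3gal5, the GM3 ganglioside synthase, was lower in all 6 groups (log2 change -0.94 to -0.68, limma adjusted p of 0.000390 to 0.0212), and St6gal1, which adds alpha-2,6-linked sialic acid, was higher at 72 h, by 0.87 after HS (limma adjusted p = 0.00458) and 0.89 after FT (limma adjusted p = 0.00455), all under 2-fold.

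Of 14 genes of the response to damaged lysosomes and of autophagy, the setting in which intracellular galectin-3 and galectin-8 are known to act, 1 was DE in any group and 13 were never DE, beside 18.2% of all genes DE in at least 1 group. It was Optn, an autophagy receptor at 5.16 CPM in NI, with a log2 change of 1.03 in HS 2 weeks, 1.11 in FT 1 week and 1.37 in FT 2 weeks. The list's median log2 change was 0.03 to 0.39. Between FT and HS 0 genes of these lists or of the further galectin genes were DE by limma. An unadjusted p under 0.05 was found in 2 of 16 tests of Lgals3bp and the 3 further galectin genes, both of Lgals3bp, in 4 of 60 tests of the binding partners, 4 of 56 of the branching enzymes, 0 of 28 of the sialyltransferases and 1 of 56 of the lysosomal genes.

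**Figure D5:**
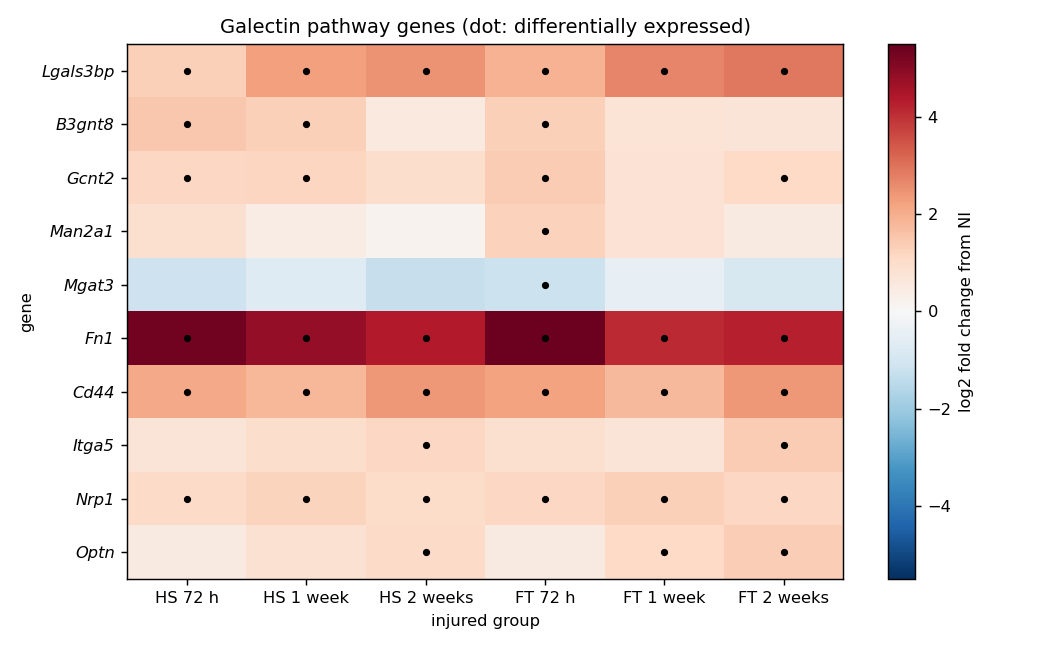
Log2 fold change from NI (colour scale) of galectin-related genes (y axis) in the 6 injured groups (x axis). The genes are Lgals3bp, B3gnt8, Gcnt2, Man2a1, Mgat3, Fn1, Cd44, Itga5, Nrp1 and Optn, and dots mark differential expression. Fn1 had the highest values (4.09 to 5.39), Lgals3bp went from 1.32 in HS 72 h to 2.89 in FT 2 weeks, and Cd44 and Nrp1 were above 1.00 in every group.

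The genes whose course over the 20 samples was most like that of each galectin were ranked by Pearson's r of log2(CPM + 0.5) over 14050 genes with a mean of at least 1 CPM. The samples share groups and depth, so r describes these libraries. For Lgals1 the 5 closest were Rbbp7 (r = 0.982), 2700094K13Rik (0.977), Txn1 (0.977), Banf1 (0.970) and Cfl1 (0.967), which include the redox protein thioredoxin and the actin-severing protein cofilin. For Lgals3 they were 5430435G22Rik (0.955), AB124611 (0.942), Cd52 (0.941), Cd300lf (0.941) and Adam8 (0.938), of which Cd52, Cd300lf and Adam8 encode leukocyte surface proteins. For Lgals9 they were Rac2 (0.981), Sep15 (0.969), Eif3h (0.968), Capzb (0.962) and Acaa2 (0.961), led by a GTPase of blood cells. For Lgals8 they were Gdap2 (0.944), Mtmr6 (0.941), Abce1 (0.936), Tmod3 (0.930) and Lcp2 (0.928). Ranking by Spearman's rho kept 0 of 5 for Lgals1, 2 for Lgals3, 2 for Lgals9 and 1 for Lgals8, so these lists depend on the measure. Lgals4, with a mean of 0.915 CPM, was not ranked. Between members, r over the same samples was 0.872 for Lgals1 and Lgals9 (rho 0.795), 0.594 for Lgals1 and Lgals3 (rho 0.474), and 0.599 for Lgals3 and Lgals9 (rho 0.254). Lgals8, which was not DE, had r of 0.677 with Lgals9 (rho 0.738), 0.441 with Lgals1 (rho 0.427) and 0.092 with Lgals3 (rho -0.039).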

How the data were processed

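Cells sorted by flow cytometry gave libraries from 10 ng of RNA with a SMARTer Ultra low and Nextera protocol, which does not mark strand. Per the labels and methods, the authors mapped reads with TopHat2 2.0.9 to GRCm38 (mm10), counted them per gene with HTSeq 0.5.4p3, kept genes with at least 10 counts in at least 2 replicates and scaled them with edgeR 3.3.6. The deposited signal is therefore a count per gene divided by an effective library size and given per 1000000 reads. Whole reads could be recovered for 336162 of 336200 values (99.9887%, tolerance 0.001 of the worth of 1 read).

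Tests used limma 3.58.1 (R 4.3.3) with a trend on log2(value + 0.5) over 16810 genes and all 20 samples, 1 mean per group, Benjamini-Hochberg adjustment, and the study's criterion of an adjusted p under 0.05 with at least 2-fold change. The fit was tested on simulated data. Fold changes on this scale understate changes of low genes. Alternatives were other pseudocounts, filters, scalings, fold limits, fits of 2 groups alone, a replicate block, leaving out each sample, and edgeR 4.0.16 and DESeq2 1.42.0 on the recovered reads. Named genes were the 5 galectins, up to 4 DE genes per list by largest change, and the 5 genes of highest correlation with each galectin. The galectins and lists were chosen with earlier results of these data known. Titles share replicate numbers but nothing says that they pair samples.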

Additional observations from a re-analysis of the deposited data

Results flagged for a closer look

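The change of Lgals1 from NI at 72 h differed from its change at later times, in both injuries, by the limma contrast between times. On the log2 scale the difference was -2.49 for 1 week against 72 h after HS (limma adjusted p = 4.75e-06) and -2.32 for 2 weeks against 72 h (limma adjusted p = 2.11e-06). After FT the corresponding values were -2.08 (limma adjusted p = 1.06e-05) and -2.13 (limma adjusted p = 7.07e-06). All samples at the later times were below all samples at 72 h in these 4 comparisons. The cause was not tested.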

How the results depend on the processing

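Over the 80 results of single galectins (5 genes in 16 comparisons), settings other than leaving out a sample kept 951 values on their side of the criterion, gained 4 calls and lost 5, and leaving out a sample kept 1596, gained 1 and lost 3, with no called value reversed. The number of galectins DE in HS 1 week was 2 and became 1 with columns scaled to 1 total, and it ranged from 1 to 2 when single samples were left out (1 without NI replicate 2, HS 1 week replicate 1 or HS 1 week replicate 2). The gene lost was Lgals1, whose log2 change was then 1.00 (limma adjusted p = 0.0627) with columns at 1 total and 1.05, 1.27 and 1.13 (limma adjusted p = 0.126, 0.128 and 0.236) without those samples. Without the fold limit 2 galectins in place of 1 were called from 72 h to 1 week and from 72 h to 2 weeks after HS, the second being Lgals9, since more genes can then pass. Lgals9 was likewise gained against NI in FT 1 week (limma adjusted p = 0.00378) and FT 2 weeks (limma adjusted p = 0.0275). The cause of the loss under the other scaling was not tested, and the losses without a sample come from fits with fewer samples. Scaling to 1 total moved the median log2 change of all genes from -0.11 to -0.52 in HS 72 h and from -0.09 to -0.48 in FT 72 h, and to between -0.36 and -0.17 in the other groups. In the settings other than leaving out a sample, Lgals1 had log2 changes of 3.19 to 3.80 in HS 72 h. In FT 72 h they were 3.43 to 3.96. Lgals3 had 2.91 to 3.55 in HS 72 h and 3.32 to 3.94 in FT 72 h. Same-numbered samples did not deviate together (median r = -0.0017 over 57 pairs, -0.0066 over 114 pairs of different numbers), and with the replicate block the numbers of galectins DE against NI were again 3, 2, 2, 3, 2 and 2. Depth limits Lgals4, with 2 to 40 reads per sample, and HS 1 week has 2 samples.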
